A study of Mus musculus with 34 samples.

Results

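Open chromatin around 23812 gene loci was counted in activated mouse B cells and set against the RNA level of the same loci. No measured value chose the loci: all 23812 of 23812 rows of the RNA table entered, each with a gene symbol and a start and end on the mouse genome build mm9. The zones do not overlap. An end peak had at least 1 base within 1 kb of either end of the locus, an inside peak lay in the locus but at neither end, and an outside peak lay within 50 kb of the locus. A peak was called STARR-positive where it shared at least 1 base with a peak of reporter activity. RNA level is the mean of the 2 activated RNA samples, treated here as FPKM, a read density per transcript length and per library size. The RNA table does not name its unit; its values are decimals that sum to nearly the same total in both samples.

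The cells were CD43-negative B cells taken by magnetic labelling from spleens of C56BL/6J mice (spelled as in the labels) aged 6 to 8 weeks, and then kept for 3 days with lipopolysaccharide (LPS, a bacterial wall component) at 10 µg per ml; 1 label field writes this dose per µl. All groups used here share that culture, and no allele or transgene is labelled. FAIRE-seq was run on 3 samples from 2 replicates and gave 1 peak list, and STARR-seq, with a plasmid library made from FAIRE DNA and reporter times of 12 h and 24 h, gave another. The labels do not say whether animals were pooled or whether replicates came from separate cultures, so the spread between samples may be technical.

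DNA that is free of nucleosomes stays in solution when crosslinked chromatin is extracted with phenol, and FAIRE-seq sequences that DNA. Active promoters and enhancers are known to be nucleosome-poor, and transcription factors of the B cell lineage act largely through enhancers in introns and between genes. STARR-seq asks a different question, whether a fragment placed in a reporter can drive its own transcription outside its chromosomal place.

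The FAIRE list held 55126 distinct peaks, all but 3 of them 301 bases wide, and 11872 (21.5%) were STARR-positive. The lists carry no score and no replicate, so all spread given here comes from the RNA. The RNA values summed to 285068 and 285129 FPKM in replicates 1 and 2, their Spearman correlation over rows was 0.966, and 8587 rows were at 0 in both; read totals are not given, so the depth behind an RNA value is unknown. B cell markers fitted the label: Cd79a was at 530 and 417, Ms4a1 at 467 and 323 and Pax5 at 35.4 and 34.9, each with an end peak. The T cell receptor chains Cd3e, Cd3d and Cd3g were at 0 in both samples, and of the macrophage genes C1qa and C1qb were also at 0. Of 14 macrophage and monocyte genes, however, 4 reached 1 FPKM, among them Mpeg1 at 28.6 and 16.8 FPKM and Cd68 at 3.21 and 4.49. Erythroid Hbb-b1 was at 11.5 and 4.24 FPKM, but Alas2 was at 0.179 and 0.112. Of 10 matched erythroid genes 2 reached 1 FPKM. The part of other cells in the results was not tested.

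Loci with open ends were mostly expressed, and loci with closed ends were mostly silent. Here open means that the list holds an end peak and closed that it holds none. A missing peak may be one below detection. Of all rows, 49.2% had an end peak and 43.0% reached 1 FPKM. Among the 11724 rows with an end peak 79.3% reached 1 FPKM (exact 95% interval 78.5 to 80.0, counting only), with a median of 8.27 FPKM in replicate 1 and 8.44 in replicate 2. Among the 12088 rows without one, 7.86% did (7.39 to 8.35), and the median was 0 in both samples. In bulk cells, fewer cells that express a gene and less RNA per cell cannot be told apart.

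RNA level was higher still with more end peaks. The median was 5.75 and 5.72 FPKM in replicates 1 and 2 for the 6273 loci with 1 end peak. It was 10.1 and 10.6 for 3791 loci with 2 peaks, and 13.0 and 13.7 for 1324 loci with 3. With 4 it was 18.8 and 18.3 FPKM over 275 loci, and with 5 or 6 it was 23.1 in both replicates over 61 loci. The steps between neighbouring counts were larger than the gaps between replicates, but the interquartile ranges of the groups overlapped widely: 3.80 to 23.7 FPKM at 2 peaks against 5.36 to 30.1 at 3. The share at 1 FPKM or more went from 71.3% at 1 peak to 87.3% at 2 and then levelled at 90.4% to 93.4%.

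**Figure D1:**
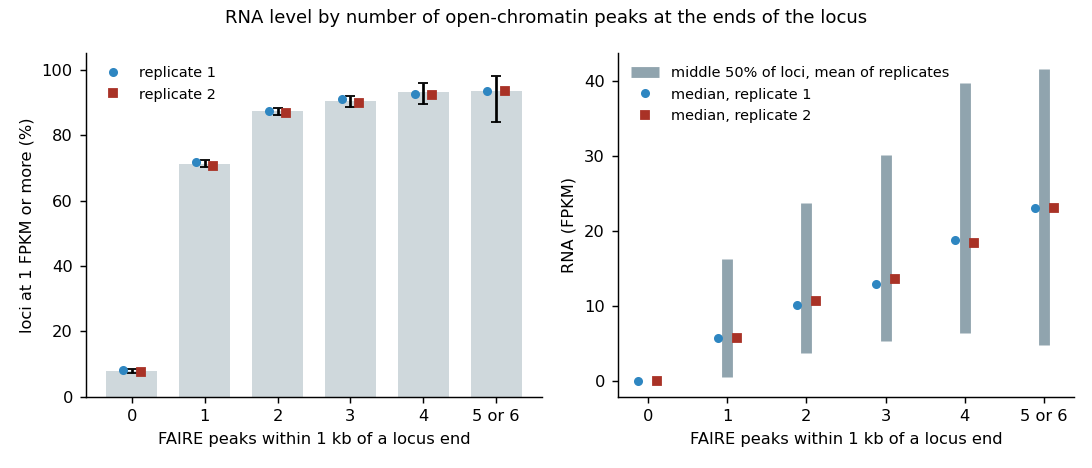
Left, share of loci at 1 FPKM or more by number of FAIRE peaks within 1 kb of a locus end, with exact 95% intervals; right, RNA in FPKM with interquartile ranges and the median of each replicate. Both replicates go from a median of 0 without an end peak to 23.1 FPKM with 5 or 6.

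Over all 23812 rows the partial Spearman correlation of end peaks with RNA, with locus length held fixed, was 0.729, and 0.727 and 0.731 with replicate 1 or 2 alone. These coefficients describe this set of genes: rows share the same samples, and 1 peak can lie near several loci. Within 10 groups of equal size by length, the coefficient was 0.419 in the shortest loci, under 1 kb, and 0.694 to 0.750 in the other 9. In that shortest group only 33.5% of its loci with an end peak reached 1 FPKM, against 71.0% to 85.0% in the others. Most of the relation lay in the step from no RNA to some RNA: among the 10242 rows at 1 FPKM or more the coefficient was 0.196.

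The step in RNA lay closer to the locus end than the 1 kb that defines an end peak. Where the nearest peak was within 0.25 kb of an end (10496 loci), the medians were 9.10 and 9.58 FPKM in replicates 1 and 2, and 83.6% reached 1 FPKM. At 0.25 to 0.5 kb they were 0.838 and 0.753 FPKM and 47.6%. Just inside the limit, at 0.5 to 1 kb, 37.2% of 669 loci reached 1 FPKM (33.5 to 41.0), and just outside it, at 1 to 1.5 kb, 30% of 474 did (25.9 to 34.3). Their medians were 0.173 and 0.138 FPKM inside and 0.0881 and 0.0686 outside, a small difference beside the step at 0.25 kb. The share went on down with distance, to 18.5% at 2 to 5 kb, 7.18% at 10 to 50 kb and 1.25% where no peak lay within 50 kb of an end.

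Open ends of expressed loci were mostly 5′ ends. A strand was taken from RefSeq (build GRCm38.p6, matched by symbol and chromosome) for 13036 loci of at least 4 kb, a split added after the data were seen. Of these loci, 56.3% had a peak within 1 kb of the 5′ end and 8.93% within 1 kb of the 3′ end. The 6530 loci with a 5′ peak alone had medians of 9.23 and 9.82 FPKM in the 2 replicates. The 356 loci with a 3′ peak alone had medians of 0.0604 and 0.0391 FPKM, far nearer to the 5342 loci with neither, at 0 and 0. With length held fixed, the partial correlation with RNA was 0.731 for 5′ peaks and 0.119 for 3′ peaks, and 0.0674 for 3′ peaks once 5′ peaks were held fixed as well.

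The peak of openness sat just before the start. In loci at 100 FPKM or more, 70.3 FAIRE peaks per 100 loci had their midpoint in the 250 bases before the 5′ end, against 4.31 per 100 in loci under 0.1 FPKM. Past the start the pattern was not symmetric. From 250 bases to 1 kb into the locus there were 0.583 peaks per locus and kb in the highest RNA group, 0.5 at 10 to 100 FPKM and 0.0221 under 0.1 FPKM. From 1 to 5 kb in, the values were 0.261, 0.140 and 0.0131. At the 3′ end no such maximum was seen: the 250 bases before it held 0.126 peaks per locus and kb at 100 FPKM or more and 0.0213 under 0.1 FPKM.

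**Figure D2:**
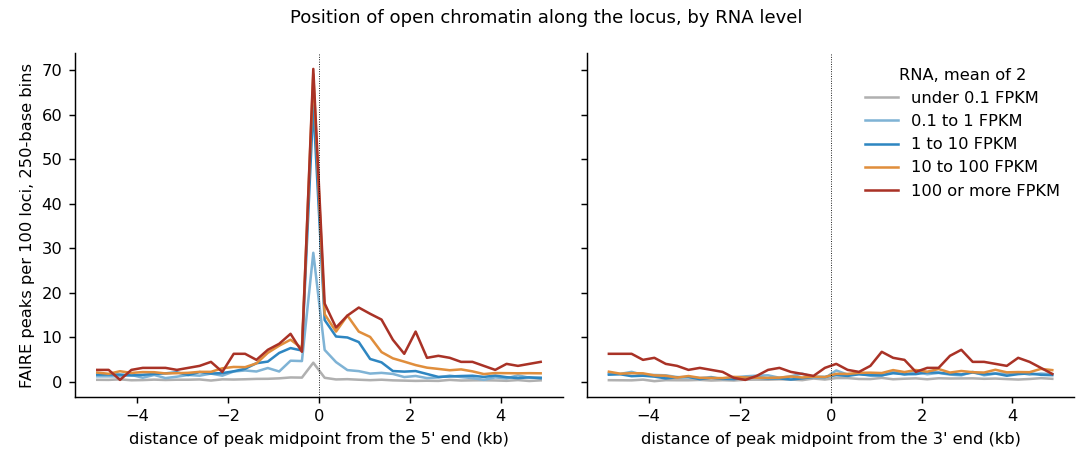
FAIRE peaks per 100 loci in 250-base bins by distance of the peak midpoint from the 5′ end (left) and 3′ end (right), for 5 groups of RNA level; positive distances run with transcription. The highest group reaches 70.3 per 100 loci just before the 5′ end and has no such maximum at the 3′ end.

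Peaks inside loci went with more RNA among loci of like length. In loci of 50 to 100 kb with an end peak, the median went from 4.36 and 4.40 FPKM (replicates 1 and 2, 352 loci) with no inside peak to 12.1 and 12 with 4 to 9 (344 loci). It reached 19.1 and 19.3 FPKM in the 90 loci with 10 or more. In loci of 5 to 20 kb with an end peak the median went from 8.17 and 8.37 FPKM without an inside peak to 27.7 and 28.0 with 4 to 9 (83 loci). The same order held at 100 to 200 kb, from 1.90 and 1.74 FPKM to 15.5 and 14.9. At 200 kb or more it was broken once, with 1.73 and 1.62 FPKM at 1 inside peak and 0.782 and 0.640 at 2 to 3.

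In loci with closed ends, RNA was low with few inside peaks and higher with 10 or more. Loci of 50 to 100 kb without an end peak had a median of 0.697 and 0.490 FPKM with 4 to 9 inside peaks, and 43.8% of these 64 loci reached 1 FPKM. With 10 or more, all 8 such loci reached 1 FPKM, with medians of 51.8 and 51.6 FPKM in the replicates, above those of the 90 loci of that length with an end peak. At 100 to 200 kb, 60% of the 15 loci with closed ends and 10 or more inside peaks reached 1 FPKM, with medians of 3.46 and 5.24 FPKM. At 200 kb or more the medians were 5.13 and 3.66 FPKM over 28 loci. Over all rows the partial correlation of inside peaks with RNA was 0.330 with length held fixed and 0.331 in each replicate. It was 0.159 with end peaks held fixed as well and 0.170 among rows at 1 FPKM or more. It grew with locus length, from 0.120 in loci of about 2 kb to 0.635 in the longest group, where 62.0% of loci held an inside peak; over all rows 30.3% did.

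**Figure D3:**
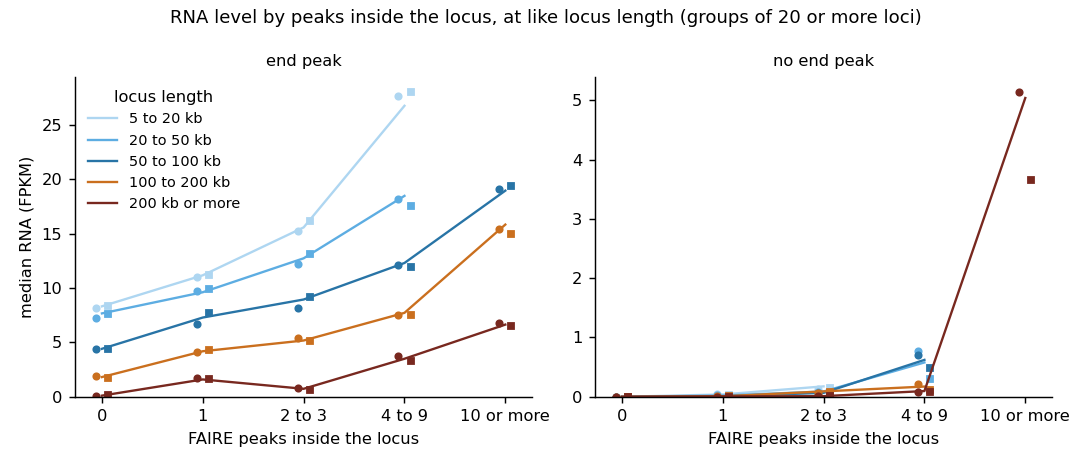
Median RNA in FPKM by number of FAIRE peaks inside the locus, for loci with (left) and without (right) an end peak, with 1 line per length class and a circle and a square for replicates 1 and 2. With an end peak every class ends higher than it starts, and at 50 to 100 kb the replicates go from 4.36 and 4.40 to 19.1 and 19.3 FPKM.

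The density of peaks beyond the locus also followed RNA, and the difference shrank with distance. At 1 to 2 kb outside, loci under 0.1 FPKM had 2.55 peaks per 100 kb and loci at 100 FPKM or more had 20.1. At 10 to 25 kb the values were 2.44 and 9.44, and at 25 to 50 kb 2.61 and 7.91. Within the locus the silent group held 0.54 peaks per 100 kb, fewer than in its own surroundings, and the highest group held 12.9. These densities are unlike measures: the inside one leaves out the locus's own ends, and the outside ones take in ends of neighbouring loci. In the silent group the mean number of outside peaks was 2.48, and 1.5 without those at other locus ends. The mean number of other loci within 50 kb was 3.49 in the silent group and 4.03 in the highest. Between the groups at 0.1 to 1 and 1 to 10 FPKM the densities were 8.32 and 9.96 at 1 to 2 kb, 6.41 and 7.39 at 2 to 5 kb, and 5.73 and 5.67 at 25 to 50 kb, so that they differed near the locus and not in the farthest bin.

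An outside peak was present for 73.3% of rows. Rows without one had a median of 0 in both replicates (6361 rows), and rows with 16 or more had 7.68 and 7.25 FPKM (934 rows). The partial correlation with length held fixed was 0.515, and 0.503 and 0.507 in single replicates. It was 0.466 with the number of neighbouring loci held fixed, 0.458 over outside peaks away from the ends of all other loci, and 0.278 with end peaks held fixed. Among rows at 1 FPKM or more it was 0.120.

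The zones combined as follows. With no peak in any zone, 1.59% of 5276 loci reached 1 FPKM (exact 95% interval 1.27 to 1.97). With an outside peak alone 9.62% of 5020 loci did, and with inside and outside peaks but closed ends 23.7% of 1509. An end peak alone went with 67.5% of 504 loci, and peaks in all zones with 84.9% of 5117 loci, whose median was 10.2 and 10.5 FPKM in the replicates.

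STARR-positive peaks were concentrated in the same short stretch as the openness. Of FAIRE peaks with their midpoint in the 250 bases before a 5′ end, 53.2% were STARR-positive (51.8 to 54.6). The share was 14.5% (13.2 to 15.9) from 250 bases to 1 kb into the locus. Openness there was lower as well, at 0.26 peaks per locus and kb against 1.57 in the 250 bases before the start. From 1 to 5 kb in it was 0.0703. In the 250 bases before the start the STARR-positive share went from 22.4% (16.9 to 28.6) in loci under 0.1 FPKM to 67.3% (59.3 to 74.6) at 100 FPKM or more. Place in the FAIRE list differed as well. The earliest end peak of a locus had a median place of 22419 under 0.1 FPKM and 3751 at 100 or more. For inside peaks the places were 28340 and 20008. The STARR-positive shares by position and RNA given here were not split by place. With each peak counted once, 33.4% of peaks at the end of any locus were STARR-positive, against 14.0% of those inside a locus but at no end and 19.2% of those within 50 kb that lay in no locus and at no end. With peaks counted once for each locus, the inside share was 14.7% under 0.1 FPKM and 16.2% at 100 or more, with no steady order between. The outside share, which then takes in peaks at the ends of other loci, was 23.6% and 25.8%.

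A STARR-positive end peak went with more RNA, but this difference followed the place of the peak in the list. Loci with 1 end peak had medians of 9.15 and 9.92 FPKM in the replicates where it was STARR-positive (2659 loci) and 3.06 and 2.71 where it was not (3614 loci). Of all rows, 25% had a STARR-positive end peak. With more end peaks the gap closed: at 4 to 6 the medians were 19.3 and 19.3 FPKM with and 20.6 and 19.0 without a STARR-positive one. The FAIRE file carries no score, and what its order stands for is not stated. When the loci with 1 end peak were split into 4 equal groups by the place of that peak, 86.8% were STARR-positive in the first group and 5.17% in the last.

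Within these groups the RNA medians lay closer. In the first group they were 11.4 and 12.3 FPKM for STARR-positive and 9.11 and 10.2 for other loci, and in the third 5.48 and 5.11 against 4.75 and 4.45. In the last group they were 0.643 and 0.544 against 0.451 and 0.353. The partial correlation of STARR-positive end peaks with RNA, with end peaks and length held fixed, was 0.155 over all rows and 0.189 over rows with an end peak. It was -0.0148 with list place held fixed as well. For STARR-positive inside and outside peaks it was near 0 throughout, at -0.000981 and 0.00762.

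**Figure D4:**
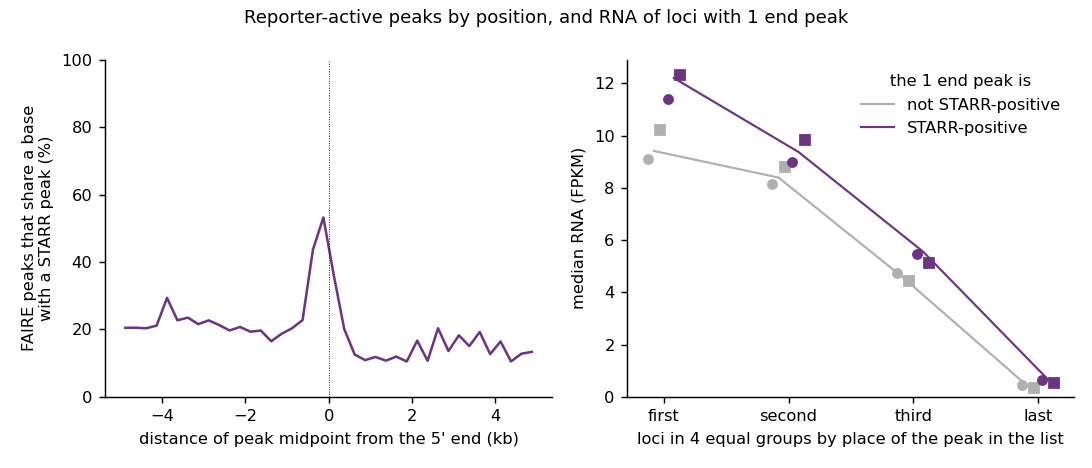
Left, percent of FAIRE peaks that share a base with a STARR peak by distance of their midpoint from the 5′ end; right, median RNA in FPKM (circles replicate 1, squares replicate 2) of loci with 1 end peak, by STARR state in 4 equal groups of list place. The share tops at 53.2% just before the start, and RNA is lower from each group to the next in both states.

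Promoter sequence differed between loci with open and closed ends. RefSeq gave 1 promoter window of 300 bases (250 before to 50 after the start, build GRCm38.p6) for 13608 of the 23812 rows, 57.1%. The windows shown are the 250 bases before the start, 5′ to 3′, with matches to TATAAA (the TATA box) or CCAAT (the CCAAT box) or GGGCGG (the GC box) on either strand in capitals. They show an open and highly expressed locus (B2m, an MHC class I subunit), the B cell receptor component Cd79a, the endoplasmic reticulum chaperones Hspa5 and Hsp90b1, which had high RNA without an end peak, the open but silent testis gene Tex14, and the closed and silent liver gene Alb. B2m is at chr2:122147437-122147686, plus strand; Cd79a at chr7:24897247-24897496, plus strand; Hspa5 at chr2:34771840-34772089, plus strand. Hsp90b1 is at chr10:86705445-86705694, minus strand; Tex14 at chr11:87404815-87405064, plus strand; Alb at chr5:90460620-90460869, plus strand.
B2m: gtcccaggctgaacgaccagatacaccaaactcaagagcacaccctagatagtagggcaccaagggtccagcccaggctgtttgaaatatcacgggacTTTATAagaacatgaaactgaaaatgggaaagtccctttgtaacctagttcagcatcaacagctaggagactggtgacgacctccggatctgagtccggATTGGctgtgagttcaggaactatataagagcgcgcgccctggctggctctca
Cd79a: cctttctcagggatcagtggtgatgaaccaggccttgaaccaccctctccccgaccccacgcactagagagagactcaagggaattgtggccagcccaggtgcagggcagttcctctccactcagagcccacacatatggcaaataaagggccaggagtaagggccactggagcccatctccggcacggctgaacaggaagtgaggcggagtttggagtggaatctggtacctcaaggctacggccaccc
Hspa5: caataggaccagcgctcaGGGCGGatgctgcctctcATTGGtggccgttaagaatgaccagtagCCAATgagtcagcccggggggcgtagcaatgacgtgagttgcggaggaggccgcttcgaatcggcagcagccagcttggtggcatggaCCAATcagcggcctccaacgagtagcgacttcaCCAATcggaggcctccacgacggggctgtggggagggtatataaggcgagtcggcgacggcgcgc
Hsp90b1: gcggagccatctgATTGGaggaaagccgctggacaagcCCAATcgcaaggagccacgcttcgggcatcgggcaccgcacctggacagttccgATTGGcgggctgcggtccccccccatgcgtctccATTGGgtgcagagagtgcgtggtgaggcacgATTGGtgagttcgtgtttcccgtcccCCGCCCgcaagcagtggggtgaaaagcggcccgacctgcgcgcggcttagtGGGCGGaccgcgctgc
Tex14: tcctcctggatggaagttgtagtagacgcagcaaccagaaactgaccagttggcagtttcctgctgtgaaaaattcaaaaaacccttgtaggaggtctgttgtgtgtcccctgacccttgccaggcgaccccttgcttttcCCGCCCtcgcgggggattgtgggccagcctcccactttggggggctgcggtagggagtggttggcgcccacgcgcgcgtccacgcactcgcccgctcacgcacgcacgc
Alb: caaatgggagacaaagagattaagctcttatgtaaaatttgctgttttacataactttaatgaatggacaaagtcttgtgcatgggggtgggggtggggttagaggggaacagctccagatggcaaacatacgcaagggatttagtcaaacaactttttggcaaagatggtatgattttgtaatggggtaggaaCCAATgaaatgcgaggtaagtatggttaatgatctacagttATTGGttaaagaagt

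The Alb window held 2 CG pairs in these 250 bases and Cd79a held 6, against 17 in Tex14, 22 in Hspa5 and 25 in Hsp90b1. CCAAT stood 4 times in Hspa5 and 5 times in Hsp90b1, counting both strands. Over all matched windows the median ratio of observed to expected CpG was 0.787 for loci with an end peak (6995 windows) and 0.244 for those without (6613). Among loci with a ratio of 0.8 or more 84.2% had an end peak, and among those under 0.2 10.4% did. CpG content and openness each went with RNA on their own: at 0.8 or more, 89.0% of loci with an end peak reached 1 FPKM and 23.3% of those without. With a ratio under 0.2 these shares were 45.4% and 2.32%. The partial correlation of end peaks with RNA was 0.745 in these rows and 0.618 with CpG held fixed.

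Short motifs were counted in the same windows on both strands, as letters and not as bound sites. GGGCGG stood in 67% of windows with an end peak and 25.5% of those without (46.8% of all matched windows), and each match holds a CG pair. The core of ETS sites, CCGGAAG, which also holds one, stood in 19.9% and 3.37% (11.9% of all). TATAAA was the reverse, at 6.52% and 21.2% (13.7% of all). Windows without an end peak were also poorer in G and C, with a median of 49.7% against 61.3%. At 15 to 40 bases before the start, on the strand of the gene, TATAAA stood in only 1.19% and 4.99% (3.03% of all). ATGCAAAT, the octamer, stood in 1.5% and 2.03% (1.76% of all), and GATAAG in 4.96% and 9.10% (6.97% of all). CCAAT did not separate open from closed ends, at 39.9% and 38.5% (39.2% of all), but did separate STARR states. It stood in 49.0% (47.4 to 50.7) of windows of loci with a STARR-positive end peak and in 29.9% (28.3 to 31.5) of those whose end peaks were all negative.

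That CCAAT gap was present in each RNA group from 0.1 FPKM up, for example 49.6% against 26.0% at 10 to 100 FPKM and 52.8% against 29.0% at 100 or more. Under 0.1 FPKM the exact intervals overlapped, 30.6 to 46.5 and 29.3 to 37.5. Among loci with 1 end peak it was widest in the first group by list place, at 59.9% of 840 windows against 27.5% of 142. It narrowed to 38.5% of 39 against 33.6% of 827 in the last.

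Histone marks split the open ends further. Of the 11724 loci with an end peak, 9924 also had an H3K4me3 and an H3K27ac peak at an end, and their median was 10.4 and 10.9 FPKM in the replicates. Open ends with H3K4me3 but no H3K27ac (870 loci) were at 0.201 and 0.177 FPKM. Open ends with neither mark (756 loci) were at 0.0603 and 0.0445. Closed ends with both marks (359 loci) were at 0.871 and 0.650 FPKM, and 46.8% of them reached 1 FPKM, against 26.1% of open ends with H3K4me3 alone. Closed ends with H3K4me3 alone (955 loci) were at 0.0355 and 0.0252 FPKM, and 8.27% reached 1 FPKM.

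Gene lists for this tissue were set beside the 49.2% of all rows with an end peak. That share depends on RNA: it was 86.4% at 1 to 10 FPKM, 94.3% at 10 to 100 and 93.0% at 100 or more. Lists of functions that dividing or secreting cells use were mostly open, near the share of other loci of like RNA. An end peak was found in 19 of 20 respiratory chain genes, 23 of 24 cell cycle genes and 21 of 24 cytosolic ribosomal protein genes. All members of these lists reached 1 FPKM. Ribosomal protein loci were short, with a median of 3.21 kb, and held 2 inside peaks in all. Rpl4 was at 1607 and 1156 FPKM with 4 end peaks, and Eef1a1, which brings aminoacyl-tRNA to the ribosome, at 1509 and 1369 with 4. Among cell cycle genes Top2a, which untangles DNA strands, was at 94.0 and 141 FPKM with 2 end and 3 inside peaks.

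The 20 B cell transcription factor loci held 289 inside peaks, 53 of them STARR-positive, with a median of 6 at a median length of 51.6 kb. Over all rows the mean was 0.905 and the median 0, but longer loci held more: the mean was 2.13 over rows of 49.9 to 97.5 kb and 3.49 over the longest group. Foxp1, a repressor needed in B cell development, had 79 inside peaks over 510 kb and no end peak, at 33.7 and 38.6 FPKM. Mef2c, which acts downstream of the B cell receptor, had 46 over 164 kb, at 62.5 and 57.0 FPKM. Ebf1, a factor that specifies the lineage, had 42 over 387 kb, at 22.3 and 14.4, and Pax5 had 21. These 3 loci held more inside peaks than all other members of the list together. Foxp1, Mef2c and Ebf1 are also among the 10 loci with most inside peaks of those with an established symbol; the highest count over all rows, 122, belonged to a row with a predicted-gene name. The others are Rabgap1l with 51, Camk2d with 49, the signalling adaptor Bank1 with 44, the kinases Prkca with 38 and Prkce with 37, the sialyltransferase St8sia4 with 37 and the octamer factor Pou2f1 with 36. RNA of these 10 ranged from Prkca at 6.76 and 7.47 FPKM to Mef2c. Prkca had 38 inside peaks, none of them STARR-positive.

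Genes of activation followed the same form. Of 24 genes of activation, NF-kB and costimulation 23 had an end peak and 21 an inside peak. The first count is near the 94.3% of all rows at 10 to 100 FPKM. An inside peak was present in 30.3% of all rows and in 32.6% of rows of 14.5 to 21.3 kb. Among the 4981 loci with an end peak and at least 10 FPKM in both samples, 51.4% had one, at a median length of 18.4 kb. The list had a median length of 16.5 kb and a median RNA of 34.7 FPKM. Nfkb1, the p105/p50 subunit, had 24 inside peaks over 107 kb at 52.4 and 54.6 FPKM. The NF-kB regulator Nfkbiz had 6 end peaks, the highest count in the table, which other loci shared, at 29.7 and 23.0 FPKM. Il10, an anti-inflammatory cytokine, had no end peak but 3 inside and 19 outside, at 10.9 and 16 FPKM; its nearest peak was 1.16 kb from the start. Among antigen presentation genes, H2-Eb1 had 3 end, 5 inside and 45 outside peaks at 541 and 391 FPKM, and 45 was the highest outside count in the table, shared with H2-Aa. Of the 16 genes of that list 15 had an end peak, and of 14 genes of class switching and DNA repair 13 did.

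Of 22 plasma cell and secretion genes 18 (81.8%) had an end peak, at a median RNA of 170 FPKM. Among all rows at 100 FPKM or more the share was higher, at 93.0%. Xbp1, the factor of the secretory response, was at 402 and 466 FPKM with 3 end peaks, and Prdm1, the regulator of plasma cell fate, at 61.3 and 75.8 with 2 end and 3 inside peaks. Ell2, an elongation factor of antibody-secreting cells, was at 71.8 and 92.5 FPKM with 3 end and 5 inside peaks. The surface proteoglycan Sdc1 had no end peak and was at 2.16 and 5.17 FPKM, with H3K4me3 at its end.

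Lists of other tissues mostly had closed ends. No liver gene of 16 had an end or an inside peak, and Alb was at 0 and 0.132 FPKM. Of 1115 olfactory receptor loci 15 (1.35%) had an end peak, of 315 vomeronasal receptors 4 (1.27%), of 104 keratin genes 2 (1.92%) and of 40 Hox genes 6. For T cell genes the count was 3 of 12, for macrophage genes 3 of 14, for neuronal genes 4 of 16 and for muscle genes 5 of 16. For erythroid genes it was 4 of 10. Of all rows under 0.1 FPKM, 11.1% had an end peak. The small T cell, neuronal and muscle lists, with median RNA under 0.1 FPKM, lay above that share at 25%, 25% and 31.2%. The olfactory, vomeronasal and keratin families lay below it. All 15 open olfactory receptor loci, all 5 open muscle genes and 3 of the 4 open neuronal genes were under 1 FPKM, whereas all 3 open macrophage genes reached it. Ckm, muscle creatine kinase, had 2 end peaks, both at its 3′ end, and 0.0891 FPKM in replicate 1 and under 0.1 in replicate 2. Lck, a T cell kinase, had 1 end peak and 5 inside at 2.53 and 1.58 FPKM. Fcgr3, a receptor for antibody, had 4 end peaks at 9.15 and 5.77 FPKM.

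Among histone and microRNA genes, open ends often came with little RNA in the table. Of 61 clustered histone genes 53 (86.9%) had an end peak, and 24 of these 53 were under 1 FPKM. Over all rows, 2432 of the 11724 with an end peak were under it. Histone and microRNA loci are short, with medians of 0.465 and 0.083 kb. Of the 236 loci under 1 kb with an end peak, 33.5% reached 1 FPKM. That group takes in short histone and microRNA loci themselves, so it is no separate comparison for them. Histone loci also filled the list of loci with most STARR-positive outside peaks: 7 of the 10 named there are Hist1 genes next to one another on chromosome 13, where the peaks counted around 1 locus are largely those counted around the next. Btn2a2 itself had 37 outside peaks, 19 of them STARR-positive, and 0 FPKM in both samples. Of 599 microRNA loci 78 had an end peak and 76 of these were under 1 FPKM. The Zfp genes were open in 283 of 357 cases, with a median of 3.85 and 3.63 FPKM.

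**Figure D5:**
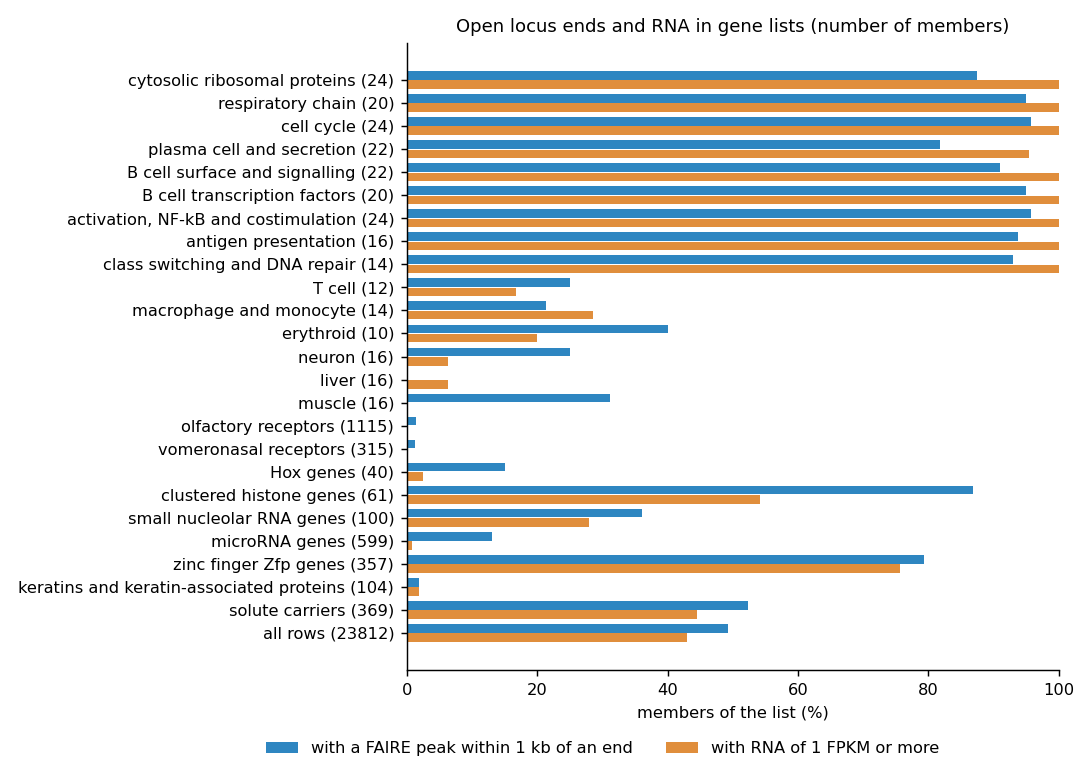
Percent of each gene list with a FAIRE peak within 1 kb of a locus end (blue) and with mean RNA of 1 FPKM or more (orange), with the number of members in brackets. Lists for cell growth and B cells lie above 80% in both, receptor and keratin families lie under 2%, and clustered histone genes are open in 86.9%.

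Some loci went against the pattern. In 294 loci RNA was at least 10 FPKM in both samples without an end peak, against 4981 with one. These 294 included Hsp90b1 (743 and 1059), Hspa5 (761 and 858), Rpl13a (566 and 372), Gnas (353 and 374) and Atf4, a factor of the stress response (314 and 378). Peaks of other marks were absent there as well: 16% of the 294 had an H3K4me3 peak at an end and 15.3% an H3K27ac peak, against 98.1% and 97.9% of the 4981. The nearest H3K4me3 peak lay at a median of 6.81 kb from an end. For Hspa5 it lay at 13.7 kb. Their promoter windows looked like those of open loci: the CpG ratio had a median of 0.829 over 139 windows, against 0.811 for loci with an end peak and 1 FPKM or more. Why the lists used here hold no peak at these ends was not tested.

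A part of the 294 had peaks elsewhere: 140 (47.6%) had an inside peak and 257 (87.4%) an outside peak. Both shares were below those of the 4981 loci with an end peak and RNA of at least 10 FPKM, at 51.4% and 95.5%. Gnas had 14 inside peaks and Ciita, the activator of MHC class II genes, had 7 at 26.5 and 20.4 FPKM; both genes are known to use several starts. Mid1, with 20 inside peaks of which 15 were STARR-positive, the most of the named loci, had no end peak at 10.2 and 10.9 FPKM. In 26 of the loci no zone held a peak. Small or repeated sequences among the highest values were unstable between replicates: Snord47 was listed at 6492 FPKM in replicate 1 and 0 in replicate 2, and ribosomal Rn45s at 871 and 404 with no peak in any zone.

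The converse, open ends without RNA, was seen in 1112 loci under 0.1 FPKM in both samples, of which 59.4% had H3K4me3 and 36.4% H3K27ac at an end. Tex14, which acts in germ cell division, had 2 end and 17 inside peaks, 9 of the inside ones STARR-positive, at 0.0343 and 0.0538 FPKM. Slc1a2, a glutamate carrier, had 14 inside peaks and no end peak, at 0 and 0.00915 FPKM. Ugt1a9, Ugt1a10 and Ugt1a6a share their 3′ end, so the 3 end peaks there and most of their inside peaks are the same peaks. Patl2 had 2 end and 11 inside peaks at 0 FPKM in both samples, with both end peaks at its 3′ end. The B2m locus, at 2296 and 1554 FPKM, lies wholly within Patl2. The 2 end peaks and 1 inside peak of B2m are thus among the peaks counted inside Patl2. Of the 53 silent loci with 3 or more end peaks, 67.9% had another locus within 1 kb, against 23.9% of silent loci without an end peak.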

How the data were processed

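RNA, FAIRE and STARR data of activated cells were used. The unit of the RNA table is not named; the deposited values, treated here as FPKM, are decimals that sum to about the same total in both samples. Per the submitters' processing notes, build mm9 with STAR, TopHat2, HOMER, bedtools, Bowtie and Bowtie2 was used by the authors, with no role or version given; per the labels' series design, peaks are HOMER calls. Whether replicates were pooled for calling, and read totals, are not given in the sources used here. Locus starts count from 0 in the files and are printed from 1.

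Duplicate peaks were removed, leaving 55126 of 55133. Peaks were assigned to zones (end within 1 kb, inside, outside within 50 kb) by 1 shared base with Python 3.11.15 (numpy 2.4.6, pandas 2.3.3, scipy 1.17.1), and the counting was tested on simulated loci. Correlations are partial Spearman coefficients over rows and carry no p, since genes are not replicates. Shares of rows have exact Clopper-Pearson 95% intervals, for counting error only. All 23812 rows entered, 145 of them on unplaced sequence, 767 with a symbol on several rows and 27 with a date in place of a symbol. Without strand in the table, overlapping and antisense genes cannot be told apart, and pseudogenes and near-identical copies have uncertain values. The gene lists and zones were chosen with earlier results of these data known. Genes were named by rule among rows with a unique and established symbol: the 10 with most inside peaks, most STARR-positive outside peaks, most STARR-positive end and inside peaks, highest RNA without an end peak, most peaks at RNA under 0.1 and highest RNA, and in each list the 3 with most peaks and up to 3 against its majority; the markers were fixed as well. Ugt1a, Il10 and other genes named beside them follow this rule; H2-Aa was named after its values were seen. Some genes the rule names are not reported here. The 5′ and 3′ split, list place, nearest-peak distances, marks around loci without an end peak and the CCAAT comparison by STARR state were added after the data were seen. Resting cells, H3K4me1, Hi-C and super-enhancers were not analysed here.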

Additional observations from a re-analysis of the deposited data

How the results depend on the processing

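The coefficients of end, inside and outside peaks with RNA (0.729, 0.330 and 0.515) were positive under every alternative run, and most alternatives moved them by more than the small spread between replicates. In that order they were 0.196, 0.170 and 0.120 among rows with mean RNA of 1 FPKM or more, 0.669, 0.286 and 0.426 as Pearson coefficients of log2 values with a pseudocount of 1, and 0.719, 0.302 and 0.472 with 0.1. They were 0.712, 0.313 and 0.466 with neighbouring loci held fixed, 0.726, 0.326 and 0.506 with 1 row per symbol and no dates, 0.725, 0.360 and 0.492 in loci of at least 1 kb, 0.714, 0.333 and 0.431 as the median within length groups (for inside peaks over the 9 groups that hold any), and 0.752, 0.375 and 0.526 in loci with no other locus within 1 kb. With end peaks held fixed, inside and outside peaks gave 0.159 and 0.278. End windows of 0.5 kb gave 0.722 for end peaks. Inside peaks gave 0.347 by midpoint and 0.410 per kb with no covariate. Outside peaks gave 0.503 within 25 kb, 0.494 within 100 kb and 0.458 away from all other locus ends. On numbered chromosomes and X the values were 0.729, 0.330 and 0.514.

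The STARR-positive coefficients (0.155, -0.000981 and 0.00762 for end, inside and outside) were weak. The first changed sign only with list place held fixed, at -0.0148, where the others were 0.0233 and 0.00135; in rows with such a peak they were 0.189, 0.00403 and 0.0244. At RNA of 1 FPKM or more they were 0.110, 0.0173 and 0.00940. As Pearson coefficients they were 0.173, -0.0317 and 0.00390 with a pseudocount of 1 and 0.172, -0.0391 and -0.00358 with 0.1. In loci of at least 1 kb they were 0.170, 0.00516 and 0.00299, and with at least 50% of the peak covered 0.146, -0.00559 and 0.00969. With neighbouring loci held fixed, inside and outside gave 0.00363 and 0.00685. End windows of 0.5 kb gave 0.161, and outside zones of 25 and 100 kb gave 0.00530 and 0.00610, and -0.00485 away from other ends. With the inside and outside values this near 0, their sign carries nothing.

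The share of rows at 1 FPKM or more was 71.4 percentage points higher with an end peak. It was 72.3 points at a threshold of 0.1 FPKM, 57.6 at 5, 72.4 with end windows of 0.5 kb and 69.1 with 2 kb. With single replicates the ranges were 0.727 to 0.731 for end, 0.331 to 0.331 for inside and 0.503 to 0.507 for outside peaks. They were 0.154 to 0.161, -0.00186 to 0.00208 and 0.00631 to 0.00734 for STARR-positive end, inside and outside peaks, and 71.0 to 71.6 points for the share. The cause of these shifts was not tested. No paired analysis was possible because only the activated samples entered and no test was made. The peak lists hold no score, replicate or depth, so a missing peak may be one below detection. The chromosome, spacing, list-place and end-peak alternatives were chosen after seeing the data.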

Other observations

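Solute carriers, the large family of membrane transporters, had an end peak in 193 of 369 loci, near the 49.2% of all rows, and 146 held an inside peak. Slc23a2, a vitamin C carrier, had 16 inside and 21 outside peaks at 8.24 and 7.61 FPKM, and Slc38a1, an amino acid carrier, had 11 inside peaks and 3 end peaks at 39.1 and 52.1. Slc33a1, the acetyl-CoA carrier of the endoplasmic reticulum, had no end or inside peak at 28.4 and 37.4 FPKM. Of 100 small nucleolar RNA loci 36 had an end peak, and their values often differed between samples: Snord104 was at 0 and 415 FPKM. Of 10 matched erythroid genes 4 had an end peak, 3 of them with RNA under 1 FPKM, and of 22 B cell surface and signalling genes 20 did. Among the latter, the kinase Syk was at 170 and 166 FPKM with 3 end and 9 inside peaks. Cd38, an ectoenzyme, had no end peak but 6 inside peaks and H3K4me3 at an end, at 36.5 and 20.2 FPKM.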
